A study of Homo sapiens with 6 samples.

Results

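Expression of 35 genes of fatty acid and triglyceride synthesis was examined in human liver cancer cells exposed to sorafenib. The genes were chosen by role: acetyl-CoA supply, fatty acid synthesis and its transcription factors, elongation, desaturation, acyl-CoA activation, glycerolipid assembly, and the storage, lipolysis, export and binding of the products. A gene was measured where the platform's probe annotation carried its symbol. Of the 35 genes, 34 had a named probe, with 57 probes in all, among 20046 genes named on the array; ACSL3, an acyl-CoA synthetase, had no named probe and has no value here. Sorafenib is an oral multikinase inhibitor used against hepatocellular carcinoma. The title of the series concerns inhibition of protein disulfide isomerase together with sorafenib; the comparison here is of sorafenib alone with its solvent.

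The sorafenib group was 3 samples of cells labelled Huh7 given sorafenib, at a concentration the labels write as 3 mM, for 24 h. Set against them were 3 samples of the same cells given DMSO, the solvent, for 24 h. The unit of the concentration could not be checked. Huh7 is a human hepatocellular carcinoma line, so both groups are 1 line in culture, without the other cells of a liver. Nothing in the labels says whether the replicates were separate cultures. P-values therefore set the group difference against the spread among these samples, and that spread may be technical.

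In liver cells, citrate exported from mitochondria is cut to acetyl-CoA, which is carboxylated to malonyl-CoA and built into palmitate by fatty acid synthase. Palmitate is activated to acyl-CoA, which can then be lengthened and desaturated. Successive acyltransferases join acyl chains to glycerol 3-phosphate until diacylglycerol becomes triglyceride. SREBF1, which encodes the sterol-regulated factor SREBP1, and MLXIPL, which encodes the glucose-sensing factor ChREBP, are known to drive transcription of many of these enzymes in hepatocytes.

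Each sample carried a signal column, not normalized, and a column of a normalized value table. Across probes, the signals and the value-table column of 1 sample had a Spearman correlation of 0.848 to 0.863, which was no higher than between different samples across the tables (0.846 to 0.863) and lower than between arrays within a table (0.923 to 0.942). The columns were therefore treated as separate sets of arrays, named after the signals and after the value table, each normalized and tested on its own. Which set came from Huh7 cells is unsettled, and no difference between the sets was tested. The median signal was 120.2 to 144.5 per array, with 16476 to 17476 of 47323 probes detected. Levels are normalized log2 intensities; the detection threshold lay at 5.99 to 6.19 on the signal arrays, and a level of 7.40 stood in for it on the value-table arrays. DMSO and sorafenib signals were deposited apart, and whether the groups were processed together is not given in the sources used here. Of 9 hepatocyte markers with a named probe, 9 were above these thresholds in both sets, as were the fetal liver markers AFP and GPC3. The fetal liver markers DLK1 and IGF2 were detected on the signal arrays alone, and H19 passed in the value table alone. Mean DLK1 levels were 14.57 with sorafenib and 14.42 with DMSO on the signal arrays, and 6.87 and 6.96 in the value table. FGB, a hepatocyte marker, stood at 6.73 with sorafenib and 6.32 with DMSO on the signal arrays, near the threshold. In the value table FGB stood at 14.46 and 14.49. Of 5 endothelial markers 0 were detected on the signal arrays and 1 (PECAM1) passed on the value-table arrays; of 5 adipocyte markers 1 (CIDEC) and 2 (CIDEC and LEP) passed, and the defining adipocyte genes ADIPOQ, PLIN1 and FABP4 were below threshold in both. The summed level of the 5 adipocyte markers was 9.91 to 9.98 on the sorafenib signal arrays and 9.76 to 9.97 on the DMSO signal arrays, and 9.65 to 9.78 on the sorafenib value-table arrays and 9.87 to 10.04 on the DMSO value-table arrays. Of 7 fibroblast and smooth muscle markers, 2 (ACTA2 and PDGFRB) were detected on the signal arrays, where the summed level of the list was 13.50 to 13.71 with sorafenib and 12.98 to 12.99 with DMSO, and COL1A1 and COL3A1 were undetected. ACTA2 rose and dominated that sum, while PDGFRB was called lower and detected on 0 sorafenib and 3 DMSO arrays. In the other set 1 of the 7 (LUM) passed, and the list's sum was 11.01 to 11.14 with sorafenib and 10.86 to 11.09 with DMSO. Of 5 immune markers 3 passed in both sets, and LYZ fell in both; the list's summed level was 12.88 to 13.03 with sorafenib and 13.59 to 13.81 with DMSO on the signal arrays, and 12.50 to 13.05 with sorafenib and 13.54 to 13.72 with DMSO in the value table, with PTPRC and CD3E below threshold. The part of these markers in the results was not tested.

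With sorafenib, genes of fatty acid and triglyceride synthesis were called higher more often than lower on the signal arrays. Of 31 members detected there, 16 rose, 3 fell and 12 did not pass (limma, adjusted p under 0.05 over all probes). These main-fit counts are 51.6% higher and 9.68% lower, where over all 10523 genes tested 16.8% were called higher and 14.2% lower. The member count was 9 higher without sorafenib replicate 2, and 10 higher and 0 lower under median scaling. Calls over all probes fell too, from 2419 higher and 2169 lower in the main fit. They were 1687 and 1436 without sorafenib replicate 2, and 1370 and 1257 under median scaling. The median log2 change was 0.28 over the members and -0.001 over all genes. The largest rises were in ACSS2, DGAT2, DGAT1 and LPIN1, and the falls were SREBF1, HSD17B12 and LPIN2. With the replicate number as a block, 19 rose and 3 fell, against a background of 22.4% higher and 21.5% lower. FADS2, 1 of the 16, passed the filter through the sorafenib group alone. ME1, PNPLA3, FABP1 and ACSL3 could not be tested.

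The value-table arrays gave fewer calls. Of 31 members above the level, 5 rose (16.1%), 1 fell (3.23%) and 25 did not pass, where 11.3% of 10595 genes were called higher and 8.17% lower. These shares lie near the background. The median log2 change was 0.03, against 0.01 for all genes. The replicate block raised the counts to 9 higher and 5 lower, with background shares of 19.1% and 15.5%. MLXIPL, PNPLA3, FABP1 and ACSL3 could not be tested in this set.

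**Figure D1:**
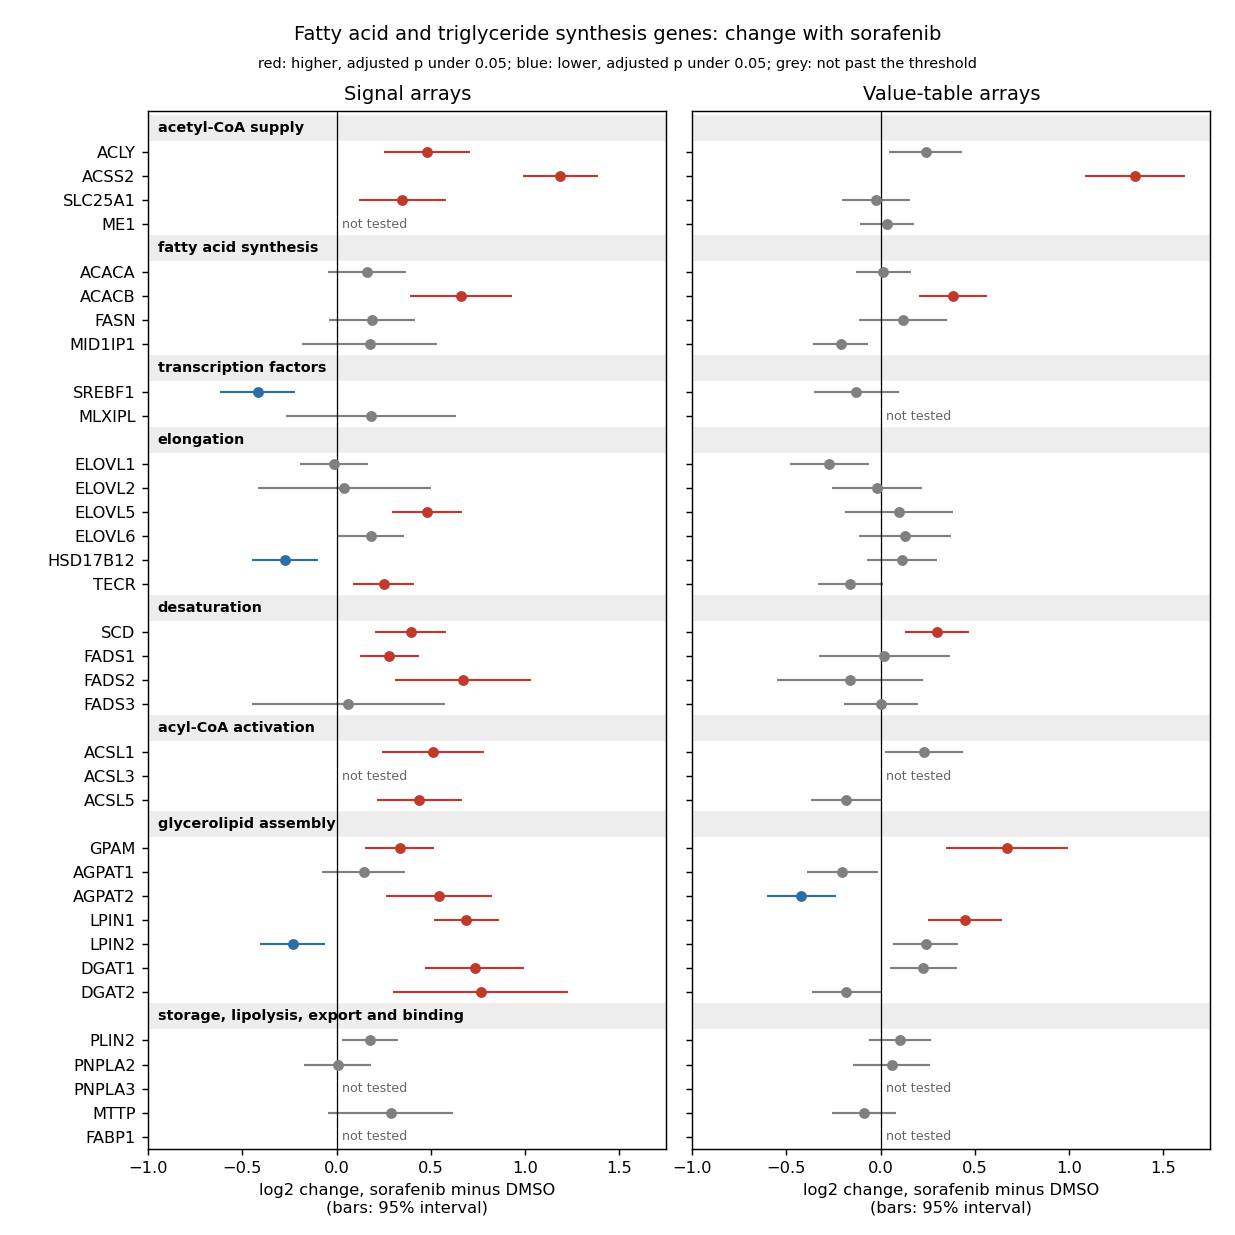
Log2 change with sorafenib (sorafenib minus DMSO, n = 3 per group) of each member, grouped by role, on the signal arrays (left) and the value-table arrays (right). Points are the fitted changes, bars their 95% intervals, red and blue mark limma adjusted p under 0.05. On the left 16 points are red and 3 blue, on the right 5 are red and 1 is blue. FADS2 on the left was detected on no DMSO array and ACSL5 on the right was above the level on no sorafenib array, so these points are differences of measured means and not full changes.

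Calls in both sets were compared over the 30 members tested in each. ACSS2, ACACB, SCD, GPAM and LPIN1 were higher in both, 5 of 30, where 5.56% of 9560 genes were higher in both. No member fell in both. AGPAT2 was called in opposite directions, a pattern seen for 0.513% of the 9560 genes. In the plot of one set's change against the other's, ACSS2 stands apart from the remaining members in the upper right.

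**Figure D2:**
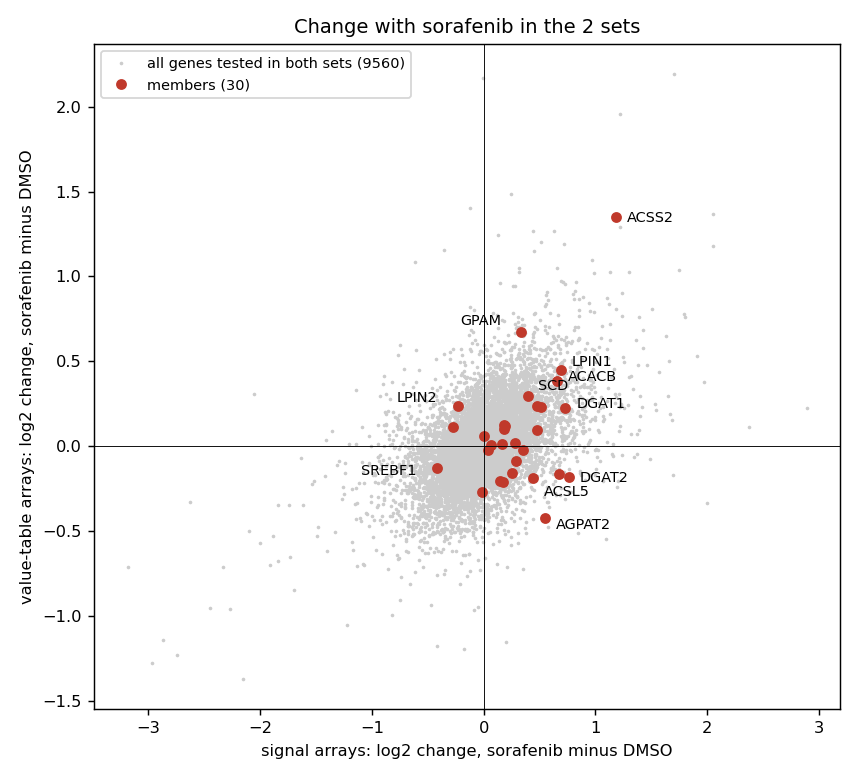
Log2 change with sorafenib on the signal arrays (x axis) against that on the value-table arrays (y axis) for 9560 genes tested in both sets (grey) and 30 members (red). ACSS2 lies at 1.19 and 1.35, and AGPAT2 lies in the lower right at 0.54 and -0.42.

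The promoters of the 5 genes that rose in both sets are shown because these genes moved together. Sequences are the 250 bases before a transcription start in RefSeq (GRCh38.p14), 5′ to 3′ on the gene's strand. Where a gene has several starts, the window holding the most kinds of motif is printed. Capitals mark matches, on either strand, to the sterol regulatory element TCACNCCAC, the E-box CACGTG, the NF-Y box CCAAT or the Sp1 box GGGCGG. ACSL1, which rose on the signal arrays, is added because its window holds a sterol regulatory element match. The windows are ACSS2 at chr20:34874739-34874988 (plus strand), ACACB at chr12:109154429-109154678 (plus), SCD at chr10:100346983-100347232 (plus), GPAM at chr10:112183766-112184015 (minus), LPIN1 at chr2:11746382-11746631 (plus) and ACSL1 at chr4:184805554-184805803 (minus).
ACSS2: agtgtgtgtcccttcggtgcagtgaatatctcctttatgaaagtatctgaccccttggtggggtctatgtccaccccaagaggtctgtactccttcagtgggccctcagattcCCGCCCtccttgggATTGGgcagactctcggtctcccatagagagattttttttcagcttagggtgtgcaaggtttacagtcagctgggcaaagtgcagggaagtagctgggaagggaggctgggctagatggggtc
ACACB: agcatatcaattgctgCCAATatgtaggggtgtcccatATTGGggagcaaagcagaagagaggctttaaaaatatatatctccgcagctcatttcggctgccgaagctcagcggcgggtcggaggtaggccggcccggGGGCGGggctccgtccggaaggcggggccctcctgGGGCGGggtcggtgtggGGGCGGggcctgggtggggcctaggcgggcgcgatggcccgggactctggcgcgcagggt
SCD: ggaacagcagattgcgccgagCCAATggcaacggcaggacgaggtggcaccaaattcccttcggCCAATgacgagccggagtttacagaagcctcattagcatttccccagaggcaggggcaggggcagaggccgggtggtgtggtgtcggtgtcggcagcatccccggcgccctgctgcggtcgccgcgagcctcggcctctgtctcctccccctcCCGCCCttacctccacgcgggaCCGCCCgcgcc
GPAM: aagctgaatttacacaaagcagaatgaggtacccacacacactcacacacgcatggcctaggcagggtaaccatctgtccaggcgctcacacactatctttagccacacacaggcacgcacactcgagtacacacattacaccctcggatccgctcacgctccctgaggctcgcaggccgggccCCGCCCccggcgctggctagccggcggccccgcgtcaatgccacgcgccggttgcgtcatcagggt
LPIN1: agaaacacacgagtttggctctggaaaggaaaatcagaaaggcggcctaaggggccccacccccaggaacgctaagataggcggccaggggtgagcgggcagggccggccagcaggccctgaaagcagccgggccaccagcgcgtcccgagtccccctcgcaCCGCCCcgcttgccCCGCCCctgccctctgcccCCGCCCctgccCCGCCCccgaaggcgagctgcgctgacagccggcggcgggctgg
ACSL1: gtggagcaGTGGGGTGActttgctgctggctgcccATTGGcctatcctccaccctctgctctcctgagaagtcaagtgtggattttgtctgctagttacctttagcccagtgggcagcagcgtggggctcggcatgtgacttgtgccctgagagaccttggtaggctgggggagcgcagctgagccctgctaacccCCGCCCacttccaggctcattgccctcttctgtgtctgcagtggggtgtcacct

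The printed windows hold mainly Sp1 and NF-Y box letters, which follows in part from choosing them by their kinds of motif. Before its start, the other ACSS2 window holds Sp1 matches alone and the other ACACB window holds no match. ACSL1 has 5 windows, and only the printed one holds the sterol element. In the printed bases, ACSS2, ACACB and SCD carry both boxes, and GPAM and LPIN1 carry Sp1 matches alone. ACSL1 has the sterol element near its upstream end beside both boxes. RefSeq windows of 250 bases before to 50 after the start were found for 30 members, 50 windows in all. The shares below are counted over these longer windows, in which GPAM also holds an NF-Y box beyond its printed bases. The sterol element was in 6% of the member windows, against 1.13% of all 35116 windows. The members were ACSL1, MID1IP1 and PNPLA2, and of these MID1IP1 and PNPLA2 were not called by group in either set. The E-box was in 6% of member windows (7.26% of all), the NF-Y box in 44% (34.6% of all) and the Sp1 box in 72% (45% of all). A match describes letters only, and its absence says nothing of a factor's binding.

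Acetyl-CoA supply held the member with the largest change in either set. ACSS2 encodes the cytosolic synthetase that makes acetyl-CoA from acetate. On the signal arrays its level (probe ILMN_1714197) was 13.56, 13.73 and 13.95 with sorafenib and 12.54, 12.57 and 12.57 with DMSO. It rose 2.28-fold (log2 change 1.19, SE 0.09, limma adjusted p = 2.78e-05), rank 100 among 10523 genes. Its value-table levels were 13.14, 12.92 and 13.41 with sorafenib and 11.71, 11.77 and 11.94 with DMSO. Every sorafenib array lay above every DMSO array in both sets. The value-table rise was 2.55-fold (log2 change 1.35, SE 0.12, limma adjusted p = 0.000495), rank 7 among 10595 genes. A second detected probe gave log2 changes of 1.31 in each set, and the other 2 ACSS2 probes were below the filter.

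ACLY, ATP citrate lyase, cuts citrate to acetyl-CoA. Its signal-array levels were 13.78, 13.88 and 14.22 with sorafenib and 13.45, 13.41 and 13.58 with DMSO. The groups did not overlap, and ACLY rose 1.39-fold (log2 change 0.48, SE 0.10, limma adjusted p = 0.00782). The value-table levels overlapped, at 13.42, 13.24 and 13.58 with sorafenib and 13.25, 13.11 and 13.16 with DMSO. That log2 change of 0.24 passed with the replicate block (limma adjusted p = 0.00807) or without sorafenib replicate 2 (0.0383), but not otherwise (0.0896). SLC25A1, the mitochondrial citrate carrier, rose on the signal arrays (log2 change 0.35, limma adjusted p = 0.0333) and had a change of -0.02 in the value table (95% interval -0.21 to 0.16). Its signal-array call was lost when DMSO replicate 1, DMSO replicate 2, sorafenib replicate 1 or sorafenib replicate 3 was left out (change 0.25 to 0.39, limma adjusted p = 0.0511 to 0.129). It was also lost under median scaling (0.32, limma adjusted p = 0.156) and without the intensity trend (0.0833). ME1, malic enzyme, a source of NADPH, was detected on none of the 6 signal arrays. It stood at 11.69 to 11.84 on all value-table arrays, with a log2 change of 0.03 (95% interval -0.11 to 0.18).

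**Figure D3:**
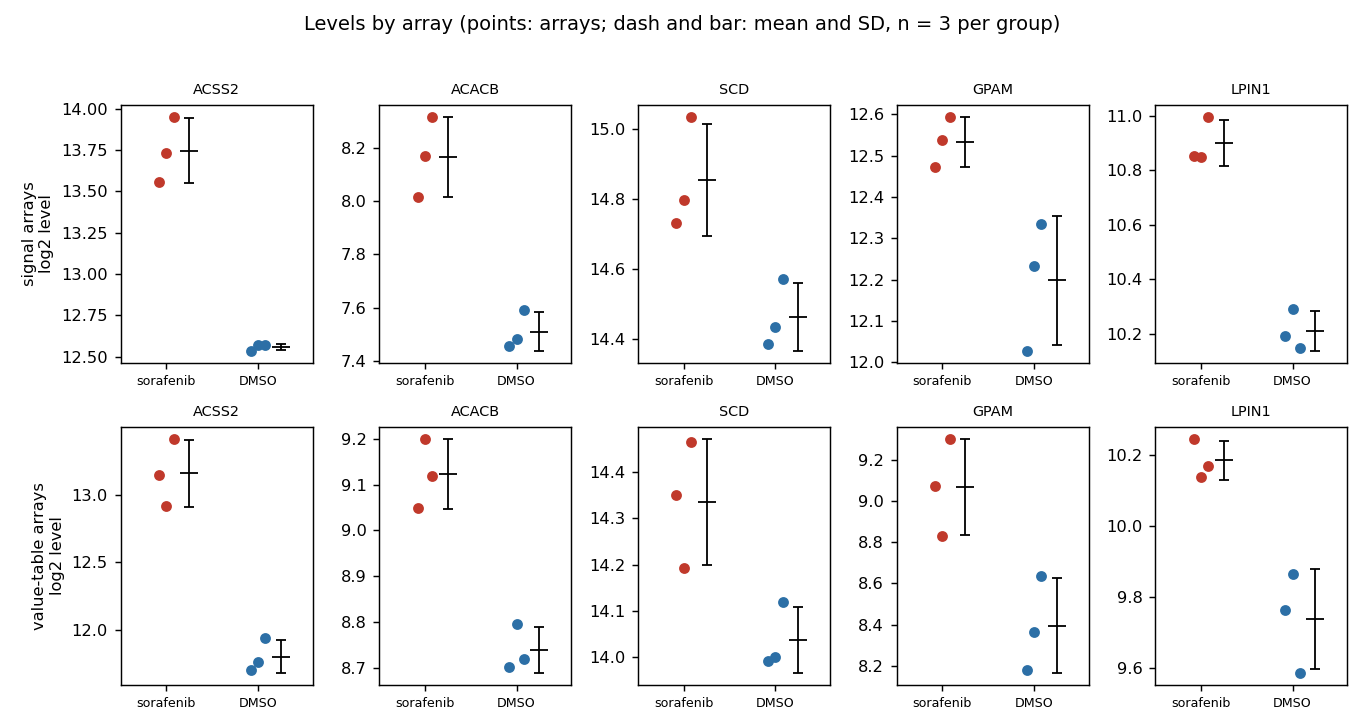
Normalized log2 level on each array of the 5 genes called higher in both sets, on the signal arrays (top) and the value-table arrays (bottom). Points are arrays, sorafenib left in red and DMSO right in blue; the dash and bar are the mean and SD (n = 3). In all 10 panels every sorafenib point lies above every DMSO point. The genes were chosen by their calls on these same arrays, so this separation follows largely from the choice.

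Among the enzymes of synthesis itself, the carboxylase ACACB rose in both sets and ACACA and FASN did not pass. ACACB encodes the acetyl-CoA carboxylase of the mitochondrial surface, whose malonyl-CoA is known to restrain fatty acid oxidation. On the signal arrays it was 8.02, 8.17 and 8.32 with sorafenib and 7.45, 7.48 and 7.59 with DMSO. The value-table levels were 9.05, 9.20 and 9.12 with sorafenib and 8.70, 8.80 and 8.72 with DMSO, and the groups were separate in both sets. ACACB rose 1.58-fold on the signal arrays (log2 change 0.66, SE 0.12, limma adjusted p = 0.00378) and 1.31-fold in the value table (0.38, SE 0.08, limma adjusted p = 0.0133). Without sorafenib replicate 2 the value-table change was 0.35 (limma adjusted p = 0.0561).

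ACACA encodes the cytosolic carboxylase that feeds synthesis. Its signal-array levels were 11.28, 11.47 and 11.66 with sorafenib and 11.31, 11.30 and 11.31 with DMSO, so 2 sorafenib arrays lay above DMSO and 1 below. The log2 change was 0.16 (95% interval -0.04 to 0.37, limma adjusted p = 0.227). Value-table levels were 11.15, 11.04 and 11.09 with sorafenib and 11.11, 11.07 and 11.05 with DMSO, with a change of 0.01 (-0.13 to 0.16). FASN, fatty acid synthase, stood at 14.77, 14.91 and 15.16 with sorafenib and 14.62, 14.75 and 14.91 with DMSO on the signal arrays. The groups overlapped, although the sorafenib array of each replicate number was above the DMSO array of the same number. FASN's log2 change of 0.19 (95% interval -0.04 to 0.42) had limma adjusted p = 0.210 by group and 0.0104 with the replicate block. FASN's value-table levels were 14.48, 14.39 and 14.75 with sorafenib and 14.30, 14.35 and 14.60 with DMSO (change 0.12, interval -0.12 to 0.35). MID1IP1, a protein that promotes assembly of acetyl-CoA carboxylase, had changes of 0.18 on the signal arrays and -0.21 in the value table. Neither passed by group (limma adjusted p = 0.464 and 0.0516); the value-table change passed with the replicate block (0.0112), with array weights (0.0497) and over probes above the level on all 6 columns (0.0465).

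Neither transcription factor gene was called higher by group where it could be tested. SREBF1 was 9.14, 9.37 and 9.26 with sorafenib and 9.61, 9.73 and 9.69 with DMSO on the signal arrays, with no overlap. It fell by 0.42 on the log2 scale (SE 0.09, limma adjusted p = 0.00776), a call that held in each fit without 1 array but not under median scaling (0.0780). A second SREBF1 probe had a change of -0.22 (limma adjusted p = 0.189). Value-table levels of SREBF1 were 8.98, 8.99 and 8.95 with sorafenib and 9.15, 8.90 and 9.25 with DMSO, and 1 DMSO array lay below all sorafenib arrays (change -0.13, 95% interval -0.35 to 0.10). MLXIPL was 10.28, 10.68 and 11.11 with sorafenib and 10.40, 10.26 and 10.86 with DMSO on the signal arrays. These levels overlapped widely (change 0.18, 95% interval -0.27 to 0.64, limma adjusted p = 0.544). Its second probe had a change of 0.24, which passed only with the replicate block (limma adjusted p = 0.0255). On the value-table arrays both MLXIPL probes lay between 7.02 and 7.31, below the level needed for a test.

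Elongation adds carbon units to acyl-CoA in the endoplasmic reticulum through elongases, a ketoacyl reductase, a dehydratase and an enoyl reductase. Of the 6 members, 2 rose and 1 fell on the signal arrays, 33.3% and 16.7% against 16.8% and 14.2% of all genes. By limma 0 passed in the value table, where 1 was lower at an unadjusted p under 0.05 and 2 were called lower with the replicate block. ELOVL5, which elongates polyunsaturated chains, was 10.32, 10.12 and 10.32 with sorafenib and 9.73, 9.81 and 9.79 with DMSO on the signal arrays. The groups were well apart, and ELOVL5 rose 1.39-fold (log2 change 0.48, SE 0.08, limma adjusted p = 0.00294; 0.0504 under median scaling). ELOVL5 was interleaved in the value table, at 9.71, 9.54 and 10.02 with sorafenib and 9.52, 9.65 and 9.81 with DMSO (change 0.10, 95% interval -0.19 to 0.38). TECR, the enoyl reductase, rose by 0.25 and HSD17B12, the ketoacyl reductase, fell by 0.27 on the log2 scale on the signal arrays (limma adjusted p = 0.0293 and 0.0282). Their value-table changes were -0.16 and 0.11, neither past the threshold by group, and TECR passed as lower with the replicate block (limma adjusted p = 0.0476).

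Both of these signal-array calls rest on narrow margins. TECR's was lost without DMSO replicate 1, sorafenib replicate 2 or sorafenib replicate 3 (change 0.20 to 0.23, limma adjusted p = 0.0831 to 0.103), and also under median scaling (0.343), without a filter (0.0530) or without the intensity trend (0.0805). HSD17B12's was lost when DMSO replicate 1, DMSO replicate 3, sorafenib replicate 2 or sorafenib replicate 3 was left out (change -0.27 to -0.23, limma adjusted p = 0.0669 to 0.0885), and likewise under median scaling (0.127), with array weights (0.0564) or without the intensity trend (0.0827). A second HSD17B12 probe had a change of -0.19 (limma adjusted p = 0.0928). ELOVL6, which extends palmitate to stearate, had changes of 0.18 on the signal arrays and 0.13 in the value table. ELOVL2, which acts on long polyunsaturated chains, had 0.04 and -0.02. ELOVL1, an elongase of saturated very long chains, had -0.01 on the signal arrays (95% interval -0.19 to 0.16). Its value-table change of -0.27 passed with the replicate block (limma adjusted p = 0.00774), with array weights (0.0399) and without DMSO replicate 2 (0.0408), but not by group over all arrays (0.0738).

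Desaturases place double bonds in acyl-CoA. SCD, stearoyl-CoA desaturase, makes oleate and palmitoleate. It was 14.73, 14.80 and 15.04 with sorafenib and 14.38, 14.43 and 14.57 with DMSO on the signal arrays. Value-table levels were 14.35, 14.19 and 14.46 with sorafenib and 13.99, 14.00 and 14.12 with DMSO. The groups were separate in both sets, though by a narrow gap in each. SCD rose 1.31-fold on the signal arrays (log2 change 0.39, SE 0.08, limma adjusted p = 0.00768) and 1.23-fold in the value table (0.30, SE 0.07, limma adjusted p = 0.0257). The value-table call was lost when DMSO replicate 1, DMSO replicate 2, sorafenib replicate 1 or sorafenib replicate 3 was left out, at log2 changes of 0.23 to 0.29 (limma adjusted p = 0.0680 to 0.0831).

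FADS1 and FADS2, the desaturases of polyunsaturated fatty acid synthesis, rose on the signal arrays and did not pass in the value table. FADS2 was 6.51, 6.68 and 6.63 with sorafenib and 5.94, 5.85 and 6.01 with DMSO. It was detected on all 3 sorafenib arrays and on 0 of 3 DMSO arrays, so it entered the test through the sorafenib group alone. Its background-corrected level was at least 1.46-fold higher with sorafenib (limma adjusted p = 0.0140). That size depends on the correction, since without it the means of FADS2 differed by 0.29 on the log2 scale. Value-table levels of FADS2 were 7.75, 7.51 and 7.94 with sorafenib and 8.01, 7.50 and 8.19 with DMSO, and these overlapped (change -0.16, 95% interval -0.55 to 0.23). FADS1 rose by a log2 change of 0.28 on the signal arrays (limma adjusted p = 0.0153) and had 0.02 in the value table (interval -0.33 to 0.37). Calls were lost without sorafenib replicate 2 for FADS1 (change 0.27, limma adjusted p = 0.0577) and FADS2 (0.0555), and for FADS2 also without DMSO replicate 2 (0.0524). The FADS1 call was also lost under median scaling (0.25, limma adjusted p = 0.269) and without the intensity trend (0.0516). FADS3, a related desaturase detected on 4 of 6 signal arrays, had changes of 0.06 and 0.00 (95% intervals -0.45 to 0.57 and -0.19 to 0.20).

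Acyl-CoA synthetases activate free fatty acids before they are esterified or oxidized. ACSL1, a main long-chain synthetase of liver, was 8.50, 8.43 and 8.23 with sorafenib and 8.02, 7.82 and 7.78 with DMSO on the signal arrays. Its value-table levels were 8.50, 8.58 and 8.64 with sorafenib and 8.20, 8.41 and 8.41 with DMSO, and the groups were separate in both sets. The signal-array rise was 1.42-fold (log2 change 0.51, SE 0.12, limma adjusted p = 0.0126) and was lost without DMSO replicate 2 (0.49, limma adjusted p = 0.0517) or sorafenib replicate 2 (0.49, 0.0509). The value-table change of 0.23 passed only with the replicate block (limma adjusted p = 0.0366; 0.117 by group).

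ACSL5, a synthetase of mitochondria and endoplasmic reticulum, was 11.73, 11.88 and 12.09 with sorafenib and 11.39, 11.38 and 11.62 with DMSO on the signal arrays. It rose 1.35-fold there (log2 change 0.44, SE 0.10, limma adjusted p = 0.0111), and a second probe rose by 0.51. The call was lost without DMSO replicate 2 (0.40, limma adjusted p = 0.0529) and under median scaling (0.41, 0.0505). The same probe was near the threshold in the value table, at 7.37, 7.26 and 7.18 with sorafenib, each below the level of 7.40, and 7.40, 7.54 and 7.41 with DMSO. ACSL5 thus entered that test through the DMSO group alone. The measured means were 7.27 with sorafenib and 7.45 with DMSO, and the difference did not pass (limma adjusted p = 0.158). Its bound was 1.04-fold lower with sorafenib.

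Glycerolipid assembly begins with GPAM, the mitochondrial glycerol-3-phosphate acyltransferase. GPAM was 12.47, 12.54 and 12.59 with sorafenib and 12.03, 12.23 and 12.33 with DMSO on the signal arrays. Value-table levels were lower as a whole, at 9.07, 8.83 and 9.30 with sorafenib and 8.18, 8.37 and 8.64 with DMSO, and the sets were normalized separately. All sorafenib arrays lay above all DMSO arrays in both. GPAM rose 1.26-fold on the signal arrays (log2 change 0.34, SE 0.08, limma adjusted p = 0.0148) and 1.59-fold in the value table (0.67, SE 0.14, limma adjusted p = 0.0143), where it ranked 118 of 10595 genes. The signal-array call was lost without sorafenib replicate 2 (0.33, limma adjusted p = 0.0513) under median scaling (0.30, 0.161) and without the intensity trend (0.0520), and the value-table call without sorafenib replicate 1 (0.67, 0.0513). A second GPAM probe had changes of 0.42 (limma adjusted p = 0.00195) and 0.49 (0.0671).

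The acylglycerol-phosphate acyltransferases AGPAT1 and AGPAT2 make phosphatidate. AGPAT2 (probe ILMN_1732176) was 7.59, 7.76 and 7.59 with sorafenib and 7.19, 7.02 and 7.10 with DMSO on the signal arrays. The same probe was 9.64, 9.70 and 9.76 with sorafenib and 10.16, 10.06 and 10.28 with DMSO in the value table. Sorafenib arrays were thus all above DMSO in one set and all below in the other. On the signal arrays AGPAT2 rose 1.46-fold (log2 change 0.54, SE 0.13, limma adjusted p = 0.0115; 0.49 and 0.0535 without sorafenib replicate 2; 0.34 and 0.0111 without background correction). Standing for AGPAT2 in the value table, probe ILMN_2377430 was 9.77, 9.77 and 9.85 with sorafenib and 10.23, 10.10 and 10.32 with DMSO. It fell by 0.42 on the log2 scale (SE 0.08, limma adjusted p = 0.00964). The 3 AGPAT2 probes had changes of 0.13, 0.54 and 0.97 on the signal arrays, the last 2 past the threshold, and -0.63, -0.47 and -0.42 in the value table, all 3 past it. AGPAT1 had changes of 0.14 and -0.20, and the second passed only with the replicate block (limma adjusted p = 0.0320).

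**Figure D4:**
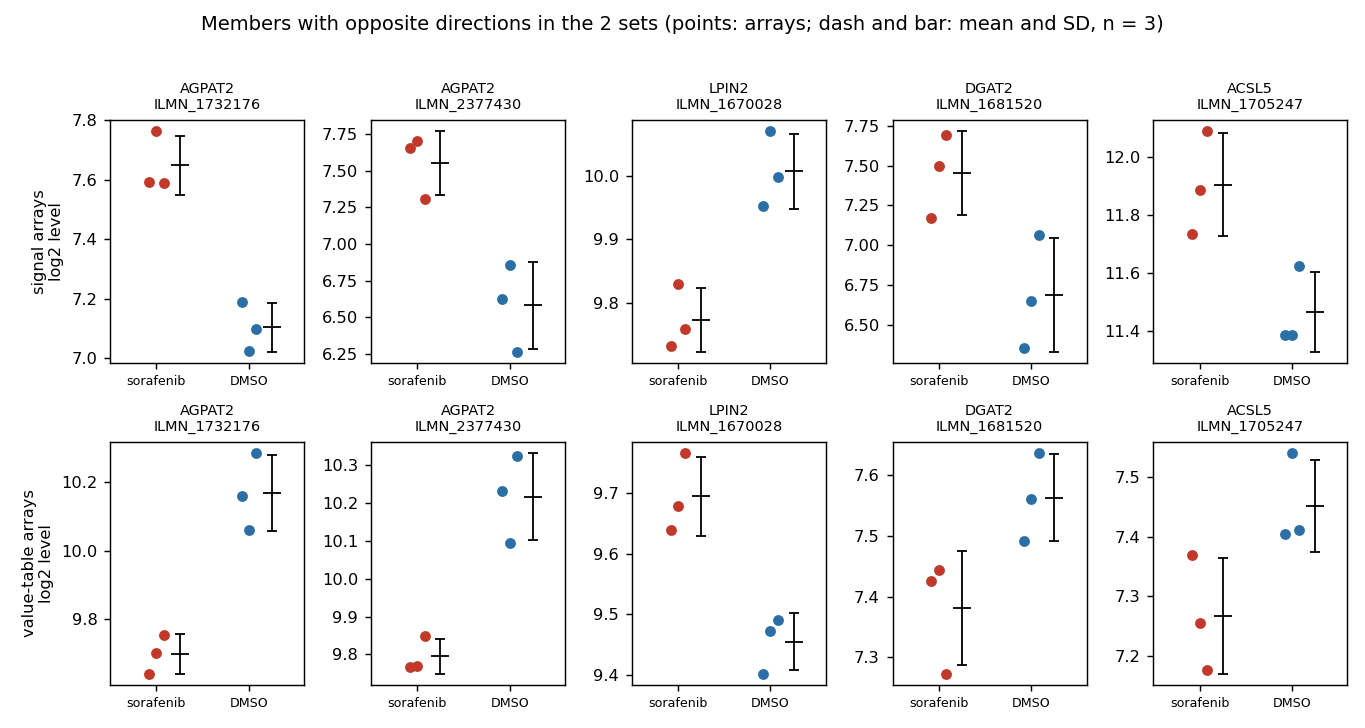
Normalized log2 level on each array of 4 glycerolipid assembly and acyl-CoA activation genes whose groups separated in opposite directions in the sets (2 probes for AGPAT2), on the signal arrays (top) and the value-table arrays (bottom). Points are arrays, sorafenib left in red and DMSO right in blue; the dash and bar are the mean and SD (n = 3). For AGPAT2, DGAT2 and ACSL5 the sorafenib points lie above DMSO in the top panels and below in the bottom panels, and for LPIN2 the reverse. The genes are shown for this pattern, and its share among all genes was not counted.

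Lipins are the phosphatidate phosphatases that yield diacylglycerol. LPIN1 was 10.85, 10.85 and 11.00 with sorafenib and 10.19, 10.29 and 10.15 with DMSO on the signal arrays. Value-table levels were 10.25, 10.14 and 10.17 with sorafenib and 9.76, 9.87 and 9.59 with DMSO. Both sets showed a clear gap between groups. LPIN1 rose 1.61-fold on the signal arrays (log2 change 0.69, SE 0.08, limma adjusted p = 0.000263) and 1.36-fold in the value table (0.45, SE 0.09, limma adjusted p = 0.0104). LPIN2 fell on the signal arrays by 0.23 on the log2 scale (limma adjusted p = 0.0487), and the call was lost in all 6 fits without 1 array (log2 change -0.26 to -0.20, limma adjusted p = 0.0687 to 0.168), under median scaling (0.374), without a filter (0.142) and without the intensity trend (0.0649). Its value-table change was 0.24 (limma adjusted p = 0.0582, and 0.0161 with the replicate block).

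Diacylglycerol acyltransferases complete triglyceride. DGAT1 was 10.95, 11.07 and 11.30 with sorafenib and 10.24, 10.28 and 10.60 with DMSO on the signal arrays. It rose 1.66-fold (log2 change 0.73, SE 0.12, limma adjusted p = 0.00187). DGAT1 value-table levels were 9.77, 9.78 and 9.92 with sorafenib and 9.52, 9.60 and 9.66 with DMSO. The groups did not overlap in either set, and the value-table change of 0.23 passed with the replicate block (limma adjusted p = 0.0199) but not by group (0.0817). DGAT2, an unrelated enzyme of the same step, was 7.17, 7.50 and 7.69 with sorafenib and 6.36, 6.65 and 7.06 with DMSO on the signal arrays. DGAT2 rose 1.70-fold (log2 change 0.76, SE 0.21, limma adjusted p = 0.0226), with the largest SE of the called members; the change was 0.43 without background correction and 0.49 with normexp. This call was lost when DMSO replicate 1, DMSO replicate 2, sorafenib replicate 2 or sorafenib replicate 3 was left out (change 0.60 to 0.74, limma adjusted p = 0.0580 to 0.0803). Value-table levels of DGAT2 were 7.43, 7.44 and 7.27 with sorafenib and 7.49, 7.56 and 7.64 with DMSO, close to the level of 7.40 (change -0.18, 95% interval -0.37 to 0.00, limma adjusted p = 0.161).

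Genes of storage, lipolysis and export did not pass by group in either set; by limma 1 of 3 on the signal arrays and 0 of 3 in the value table had an unadjusted p under 0.05. PLIN2, the main droplet coat protein of hepatocytes, had log2 changes of 0.18 on the signal arrays and 0.10 in the value table. The signal-array change had limma adjusted p = 0.0776 by group and passed with the replicate block (0.0182), with the mean of its probes (0.0472) and without sorafenib replicate 3 (0.0488). MTTP, which loads lipid onto apolipoprotein B, had a change of 0.29 on the signal arrays (95% interval -0.04 to 0.62), which passed only with the replicate block (limma adjusted p = 0.0116), and -0.09 in the value table. PNPLA2, the first lipase of triglyceride breakdown, had 0.01 and 0.06 (95% intervals -0.17 to 0.18 and -0.15 to 0.26). PNPLA3, a related droplet protein, and FABP1, the liver fatty acid binding protein, were below threshold on all 6 arrays of both sets.

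Related genes were counted from 8 lists of 126 genes outside the 35. On the signal arrays 27 of 91 rose and 12 fell, 29.7% and 13.2%, against 16.8% and 14.2% of all genes, with a median log2 change of 0.08. Over the value-table arrays 8 of 83 rose and 9 fell, 9.64% and 10.8%, against 11.3% and 8.17% of all genes, with a median of 0.06 (0.01 over all genes). With the replicate block 35 rose and 19 fell on the signal arrays, where 22.4% and 21.5% of all genes were called, and 19 rose and 17 fell in the value table, where the shares were 19.1% and 15.5%. Counts for each list stand in the plot of calls by role and list.

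**Figure D5:**
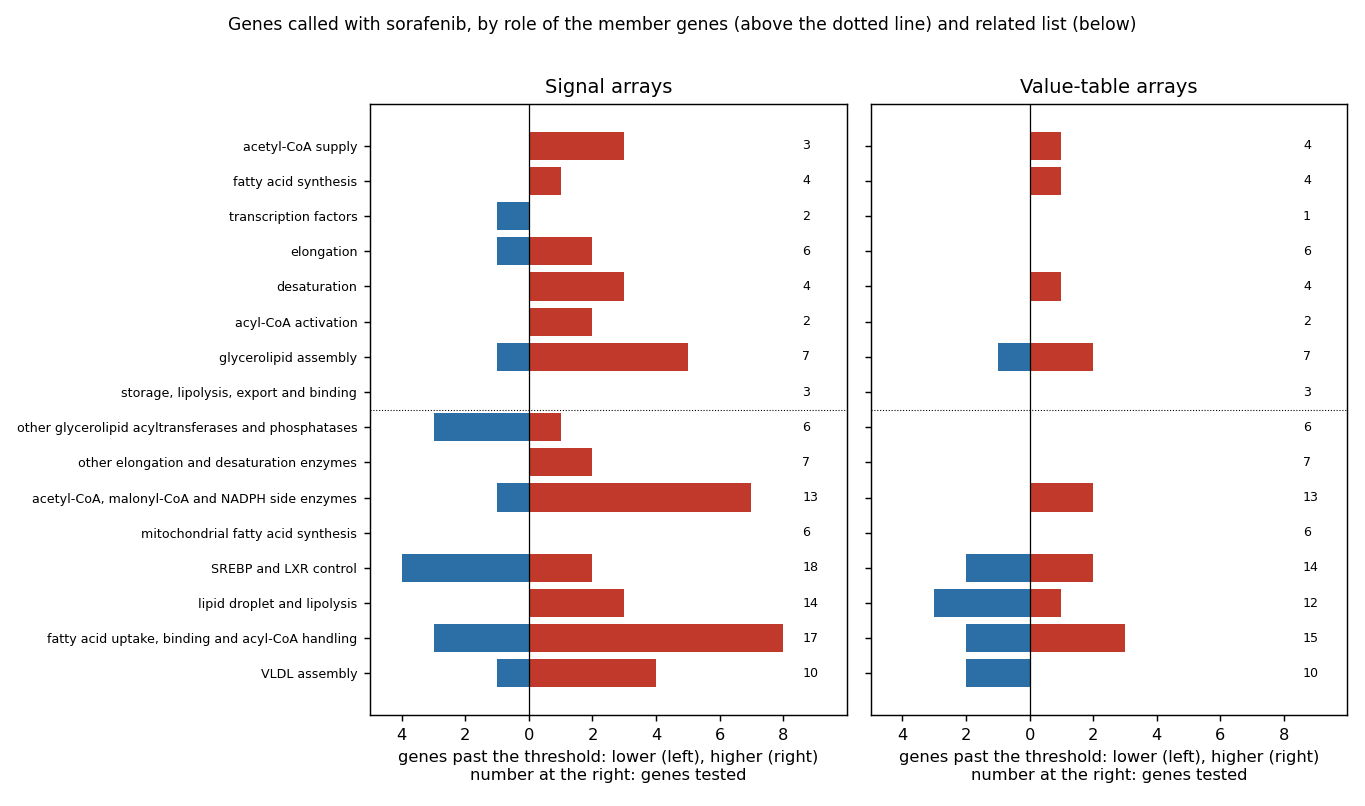
Number of genes past the limma threshold with sorafenib, lower to the left in blue and higher to the right in red, for each role of the 35 genes (above the dotted line) and each related list (below), with signal arrays left and value-table arrays right. The number at the right of each bar is the genes tested. Glycerolipid assembly has 5 higher and 1 lower of 7 on the signal arrays (71.4% and 14.3%), against 16.8% and 14.2% of all genes. In the value table it has 2 higher and 1 lower of 7 (28.6% and 14.3%), against 11.3% and 8.17%. Mitochondrial fatty acid synthesis has 0 of 6 in both sets.

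Enzymes at the edge of acetyl-CoA and NADPH supply gave 7 higher and 1 lower of 13 on the signal arrays, 53.8% and 7.69% against 16.8% and 14.2% of all genes. In the value table, 2 of 13 were higher (15.4%, near the 11.3% of all genes) and 6 with the replicate block. The mitochondrial acetyl-CoA synthetase ACSS1 rose by a log2 change of 0.95 and the NADPH-forming isocitrate dehydrogenase IDH2 by 0.70 on the signal arrays (limma adjusted p = 6.50e-05 and 0.000409). MLYCD, which removes malonyl-CoA, rose by 0.52 there and citrate synthase CS fell by 0.17. The CoA diphosphatase NUDT7 rose in both sets, by 0.51 and 0.47, and ME2, the mitochondrial malic enzyme, by 0.29 in the value table. Mitochondrial fatty acid synthesis, a separate bacterial-type pathway, had 0 of 6 genes called by limma in either set. Of all genes, 16.8% were higher and 14.2% lower on the signal arrays, and 11.3% and 8.17% in the value table. The list also had 0 genes with an unadjusted p under 0.05, with changes between -0.12 and 0.08 on the signal arrays. With 6 genes, these counts are small.

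Other acyltransferases and phosphatases of glycerolipid assembly had 1 higher and 3 lower of 6 on the signal arrays, 16.7% and 50% against 16.8% and 14.2% of all genes. GPAT3, the acyltransferase of the endoplasmic reticulum, fell by 0.75, LCLAT1, a lysocardiolipin acyltransferase, by 0.57 and AGPAT5 by 0.39 on the log2 scale (limma adjusted p = 0.00230, 0.000980 and 0.0148). MOGAT3, a monoacylglycerol acyltransferase, rose by 0.67. By group 0 of 6 passed limma's test in the value table; 3 were lower at an unadjusted p under 0.05, and 3 passed as lower with the replicate block. Of 7 other elongation and desaturation enzymes, 2 rose on the signal arrays, the cytochrome CYB5A by 0.40 and the dehydratase HACD2 by 0.23 (28.6%, against 16.8% of all genes), and 0 fell. None of the 7 passed by limma in the value table, where 2 were higher and 2 lower at an unadjusted p under 0.05. The replicate block gave 4 higher and 2 lower on the signal arrays and 2 of each in the value table.

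Among regulators of the SREBP and LXR axis, 2 of 18 were higher and 4 lower on the signal arrays, 11.1% and 22.2% against 16.8% and 14.2% of all genes. In the value table, 2 of 14 were higher and 2 lower, 14.3% each against 11.3% and 8.17%, and the replicate block gave 4 and 2. These shares lie near the background. NR0B2, the repressor SHP, was 7.80, 7.71 and 7.34 with sorafenib and 10.08, 10.15 and 10.18 with DMSO on the signal arrays. It fell by 2.52 on the log2 scale (limma adjusted p = 2.65e-06). The nuclear receptors RXRA and NR1H3 rose by 0.73 and 0.31. PRKAA1, a catalytic subunit of AMP kinase, fell by 0.36, and PPARGC1B, detected on 1 of 3 sorafenib arrays, was called lower. MLX, the partner of ChREBP, fell in both sets, by 0.36 and 0.27. INSIG1, which retains SREBP in the endoplasmic reticulum, rose in the value table by a log2 change of 0.55 (limma adjusted p = 0.00481) and USF2 by 0.25, while PPARG fell by 0.24.

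Uptake, binding and acyl-CoA handling gave 8 higher and 3 lower of 17 on the signal arrays, 47.1% and 17.6% against 16.8% and 14.2% of all genes. The value table had 3 higher and 2 lower of 15, 20% and 13.3% against 11.3% and 8.17%. The share lower on the signal arrays lies near the background. CD36, a fatty acid transporter, was 9.64, 9.65 and 10.06 with sorafenib and 7.99, 8.09 and 8.29 with DMSO on the signal arrays, a rise of 1.66 on the log2 scale (limma adjusted p = 4.34e-05). FABP3, a fatty acid binding protein best known from muscle, was detected on all sorafenib arrays and 0 DMSO arrays in both sets. FABP3 therefore entered both tests, and the 17 and 15 genes counted above, through the sorafenib group alone. Its level was at least 1.85-fold higher with sorafenib on the signal arrays and at least 1.25-fold higher in the value table. The thioesterase ACOT1 rose by 0.96 and 0.36 and the synthetase ACSF2 by 0.74 and 0.64, while FABP5 fell by 0.36 and 0.56. ACSM3, a medium-chain synthetase, rose by 0.73 on the signal arrays and fell by 0.31 in the value table. SLC27A2 and ACSL4 fell by 0.51 and 0.38 on the signal arrays.

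Lipid droplet and lipolysis genes had 3 higher and 0 lower of 14 on the signal arrays by limma, against 16.8% and 14.2% of all genes, and 7 higher and 3 lower with the replicate block or at an unadjusted p under 0.05. The value table had 1 higher and 3 lower of 12, against 11.3% and 8.17%, and 1 and 5 with the block. CIDEB, a droplet fusion protein of hepatocytes, rose by 0.58 on the signal arrays (limma adjusted p = 0.00237) and fell by 0.36 in the value table (0.0273). PNPLA7 and PNPLA6 rose on the signal arrays by 0.48 and 0.37. CIDEC and the monoacylglycerol lipase MGLL fell by 0.71 and 0.55 in the value table, and RAB18 rose by 0.28. VLDL assembly, the export route for triglyceride, had 4 higher and 1 lower of 10 on the signal arrays, 40% and 10% against 16.8% and 14.2% of all genes. By limma 0 were higher and 2 lower of 10 in the value table, against 11.3% and 8.17%; the replicate block gave 2 and 3 there, and an unadjusted p under 0.05 gave 1 and 3. APOC3, an inhibitor of triglyceride clearance, rose by 1.91, the carboxylesterase CES1 by 0.77 and TM6SF2 by 0.76 on the signal arrays. APOB, the structural protein of VLDL, fell in both sets, by 0.53 and 0.21, and the cargo receptor SURF4 fell by 0.49 in the value table.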

How the data were processed

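RNA of 3 sorafenib and 3 DMSO samples was measured on Illumina expression beadchips. A spin kit and DNase were used to prepare RNA, which became biotinylated cRNA, per the labels' protocols. The authors deposited probe signals as linear intensity, not normalized, with a detection p-value beside each, per the file headers. The deposited value table was read as log2 from its values, which ran from 6.08 to 15.85 (median 7.10) with 1 distribution in all columns; no source used here gives its log base, background treatment or software.

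Signals were background-corrected from the detection p-values, given an offset of 16 and quantile-normalized with limma's neqc, then taken as log2. The filter kept probes whose detection p-value was under 0.01 on at least 3 of 6 arrays (17115 of 47323 probes). Value-table probes above 7.40, the mean level of that threshold when signals are not background-corrected, in 3 or more columns stayed in (17122). Each set was tested over all kept probes with limma 3.58.1 under R 4.3.3 (linear fit, empirical Bayes with intensity trend, two-sided, Benjamini-Hochberg, threshold 0.05, group only). Of a gene's kept probes, the brightest on average represented it, and calls at that probe were counted. Where no array of a group detected a probe, the fold is a bound, set against the higher of each array's detection level (7.40 in the value table) and the probe's own level. The precision is limited by the number of arrays, 3 per group.

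Sample titles gave the groups and replicate numbers. Deviations of same-numbered sorafenib and DMSO samples from their group means correlated at 0.32 to 0.38 on the signal arrays and 0.32 to 0.67 in the value table, and those of differently numbered ones at -0.35 to 0.03 and -0.52 to 0.29. The numbers may therefore pair the samples, but this is only a hint from the data, and the value-table ranges nearly meet at 0.32 and 0.29. The main calls and counts are by group and ignore any pairing. Values with the replicate block stand beside members whose call it changes and lists whose counts it moves most. Symbols came from the platform's annotation: 30113 probes had 1 symbol, 8 several and 17202 none.

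The members and related lists were chosen with earlier results of these data known. Levels by array are given for members called with a log2 change of at least 0.4 in either set and for SREBF1, MLXIPL, FASN, SCD and ACACA. From each related list at most 3 genes called higher and 3 called lower are named by size; arrays are shown for NR0B2 and CD36, which were chosen for this after their values were seen. Promoter windows came from RefSeq's GRCh38.p14 annotation. Alternatives changed the normalization, background correction, filter, trend, array weights, probe summary and block, and left out each array in turn.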

Additional observations from a re-analysis of the deposited data

Results flagged for a closer look

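Several members had groups that did not overlap in either set and moved in opposite directions in the sets. How many of all genes show that pattern was not counted. Calls in both sets in opposite directions, the case of AGPAT2 alone among the members, were seen for 0.513% of 9560 genes. The difference between the sets was not tested, and whether both sets came from the same cells is unsettled. The log2 change with sorafenib was 0.54 on the signal arrays and -0.42 in the value table for AGPAT2, which was called in both sets. For DGAT2 it was 0.76 and -0.18, and for ACSL5 0.44 and -0.18, with the value-table difference of each not past the threshold and the levels close to 7.40. No sorafenib column was above that level for ACSL5, so -0.18 is a difference of measured means, and the level was at least 1.04-fold lower with sorafenib. LPIN2 ran the other way, with -0.23 on the signal arrays and 0.24 in the value table. The value-table change passed only with the replicate block or when each gene's probes were averaged (limma adjusted p = 0.0471). LPIN2 had 1 kept probe there, so its own change of 0.24 was the same in that fit.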

How the results depend on the processing

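Of 864 recomputed member changes, 399 on the signal arrays and 365 in the value table kept their direction and side of the threshold. A further 47 and 6 lost the threshold, 5 and 14 gained it, and 12 and 16 changed sign. The median of all genes moved by less than 0.1 under every scaling. Median scaling of the signals left 10 members higher and 0 lower, with 1370 probes higher and 1257 lower, against 2419 and 2169. The cause was not tested. Fitting without the intensity trend left 1 member lower on the signal arrays. In the value table (1555 probes higher and 1483 lower), array weights gave 3 members lower and the filter on all 6 columns 2. The replicate block gave 3387 probes lower on the signal arrays and 2721 higher and 2735 lower in the value table, where 9 members were higher and 5 lower; beyond the calls given above it changed no other member's call. Leaving out 1 array gave 9 to 16 members higher and 1 to 2 lower on the signal arrays, with 1687 to 2334 probes higher and 1262 to 2009 lower. The low count of 9 came without sorafenib replicate 2 and that of 1262 without DMSO replicate 2. In the value table it gave 3 to 5 members higher, 3 without sorafenib replicate 1, and 1 to 2 lower, with 811 to 1192 probes higher and 749 to 1302 lower. Sign changes were among uncalled changes only. FADS1 in the value table was -0.076 with array weights, HSD17B12 in the value table -0.011 with the mean of its probes and PNPLA2 on the signal arrays -0.0056 under median scaling. Leaving out 1 array spanned 0, with changes of -0.051 to 0.016 for ELOVL1, -0.12 to 0.24 for ELOVL2, -0.084 to 0.26 for FADS3, -0.025 to 0.39 for MLXIPL and -0.039 to 0.058 for PNPLA2 on the signal arrays. In the value table the changes were -0.012 to 0.039 for ACACA, -0.12 to 0.048 for ELOVL2, -0.034 to 0.20 for ELOVL5, -0.17 to 0.15 for FADS1, -0.050 to 0.070 for FADS3 and -0.097 to 0.013 for SLC25A1.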
